A study of Saccharomyces cerevisiae with 20 samples.

Results

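The ncRNA features named ST followed by a number are transcribed stretches, mostly between or opposite ORFs, that were added to the yeast annotation before the reads were counted. What the letters stand for is not given in the sources used here. The features were taken from the count table by name, and kept where their median over the 20 libraries reached 1 CPM (counts scaled to a fixed library total) of the counts in features whose name does not begin with Y. This left 1312 of 1772 ST features, out of 4007 non-ORF features that passed the same filter and 12131 features in the table. Of the 460 ST features below it, 349 had no count in any library, and 304 of those lay wholly inside another feature of the same strand, where a read pair belongs to both features and is not counted for either. The remaining 111 had counts but stayed under the filter.

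Colonies of 5 strains were profiled by stranded mRNA sequencing, with 4 libraries per strain. All derive from F45, a MATa haploid with an ho deletion, a SPS2:EGFP reporter and an unmapped serine auxotrophy, and all were grown for 4 days on rich plates with G418 before several colonies were pooled per sample. Each carries a gene under its own promoter on a low-copy centromeric plasmid, and the strains are named after that gene: SFL1 (a repressor of flocculation genes), HEK2 (a KH-domain RNA-binding protein), SAN1 (a ubiquitin ligase of the nucleus), ROF1 (a WOPR-domain regulator of colony morphology) and TOS8 (a homeodomain protein). The empty-vector F45 control was not analysed here, so every strain was set against the mean of the other 4, or against 1 other strain. The plasmid gene was raised in its own strain in all 5 cases, by 1.29 to 2.19 on the log2 scale. The 5 a-specific genes were read in every library, from at least 64 counts (BAR1) to at least 945 (STE2) and 997 (MFA2). The alpha-specific genes were read in every library too, from at least 2 counts (MFALPHA2) to at least 390 (SAG1). These counts alone therefore do not show the mating type.

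Budding yeast transcribes far more of its genome than its ORFs. Many noncoding transcripts start in the nucleosome-depleted regions at either end of a gene, since promoters fire in both directions. They are capped, and many are then terminated early by the Nrd1-Nab3-Sen1 complex and degraded by the nuclear exosome, helped by the TRAMP polyadenylation complex. Others are polyadenylated, reach the cytoplasm and are removed by decapping and the exonuclease Xrn1. Transcription across an ORF from the opposite strand, or through the promoter of a gene just downstream, can leave chromatin marks that lower the transcription of that gene, and this has been studied most closely at loci such as FLO11, the gene of the main adhesin of yeast colonies.

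The bases behind the main results are printed here, read from the RefSeq R64 genome, 5′ to 3′ on the strand of the ST feature. ST1141 is shown because it rose most in the TOS8 strain and lies next to the TOS8 gene itself. The stretch chrVII:325136-325333 (plus strand) runs from the first base that only ST1141 covers, through the end of the feature, to the start codon of TOS8, in capitals.
ST1141: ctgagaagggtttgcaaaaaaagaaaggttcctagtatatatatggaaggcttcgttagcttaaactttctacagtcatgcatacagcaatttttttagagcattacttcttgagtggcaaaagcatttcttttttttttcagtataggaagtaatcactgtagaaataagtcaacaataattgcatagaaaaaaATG
ST5256 (chrIX:51429-51613, minus strand) and ST4290 (chrIV:924285-924541, minus strand) are shown whole, as the most abundant ST feature per kb and another of the 5 most abundant, and ST3196 (chrXV:661889-662169, plus strand) as a short feature that rose in the SFL1 strain.
ST5256: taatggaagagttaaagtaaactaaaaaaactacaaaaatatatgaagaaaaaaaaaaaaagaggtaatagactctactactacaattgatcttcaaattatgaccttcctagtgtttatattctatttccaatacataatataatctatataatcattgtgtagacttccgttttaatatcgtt
ST4290: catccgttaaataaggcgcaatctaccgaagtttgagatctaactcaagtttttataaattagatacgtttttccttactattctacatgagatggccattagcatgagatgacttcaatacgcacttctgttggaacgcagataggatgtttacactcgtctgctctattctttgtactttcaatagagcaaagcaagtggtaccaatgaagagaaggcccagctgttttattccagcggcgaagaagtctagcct
ST3196: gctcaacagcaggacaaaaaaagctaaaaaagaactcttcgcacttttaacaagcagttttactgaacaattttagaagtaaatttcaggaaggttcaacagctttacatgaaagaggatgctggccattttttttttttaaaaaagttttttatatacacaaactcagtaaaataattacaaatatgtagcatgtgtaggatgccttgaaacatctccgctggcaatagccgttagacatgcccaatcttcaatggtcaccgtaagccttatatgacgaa
For ST1471 (chrVIII:271861-272160, plus), ST2976 (chrXV:31416-31715, plus), ST3628 (chrXVI:928461-928760, plus), ST6545 (chrXIV:485213-485512, minus) and ST0091 (chrII:196058-196357, plus), which changed strongly between strains, the 250 bases before the annotated start and the first 50 of the feature are given. Capitals mark matches to the motifs described next.
ST1471: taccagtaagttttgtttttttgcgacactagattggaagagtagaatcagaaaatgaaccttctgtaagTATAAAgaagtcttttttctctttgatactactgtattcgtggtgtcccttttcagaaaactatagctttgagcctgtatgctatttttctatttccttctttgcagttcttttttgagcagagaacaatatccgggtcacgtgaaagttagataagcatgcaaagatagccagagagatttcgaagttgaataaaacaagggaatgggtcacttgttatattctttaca
ST2976: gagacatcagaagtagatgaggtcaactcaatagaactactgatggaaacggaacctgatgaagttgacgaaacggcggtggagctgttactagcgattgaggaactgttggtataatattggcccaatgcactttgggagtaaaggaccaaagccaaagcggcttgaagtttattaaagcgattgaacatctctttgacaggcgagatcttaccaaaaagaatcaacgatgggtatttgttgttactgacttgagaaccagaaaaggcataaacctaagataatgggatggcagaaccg
ST3628: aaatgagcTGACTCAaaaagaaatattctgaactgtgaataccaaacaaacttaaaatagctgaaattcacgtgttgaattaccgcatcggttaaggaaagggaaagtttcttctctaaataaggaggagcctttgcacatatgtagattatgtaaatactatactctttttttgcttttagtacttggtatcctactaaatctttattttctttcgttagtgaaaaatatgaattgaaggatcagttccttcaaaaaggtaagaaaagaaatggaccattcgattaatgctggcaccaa
ST6545: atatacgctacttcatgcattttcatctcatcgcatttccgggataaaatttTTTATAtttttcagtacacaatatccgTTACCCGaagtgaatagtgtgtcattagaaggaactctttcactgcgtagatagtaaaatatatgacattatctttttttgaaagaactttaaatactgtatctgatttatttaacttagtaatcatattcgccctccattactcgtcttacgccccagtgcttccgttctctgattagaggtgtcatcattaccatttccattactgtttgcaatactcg
ST0091: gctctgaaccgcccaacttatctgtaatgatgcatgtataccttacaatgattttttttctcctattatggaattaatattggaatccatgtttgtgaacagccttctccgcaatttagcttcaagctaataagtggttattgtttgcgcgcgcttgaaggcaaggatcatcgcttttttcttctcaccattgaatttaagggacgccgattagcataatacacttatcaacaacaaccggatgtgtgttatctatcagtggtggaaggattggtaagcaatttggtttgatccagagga

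Windows of these 300 bases were searched on both strands for TATAAA, the element of many core promoters, for TGAAACA, the pheromone response element that Ste12 binds, for TGACTCA, bound by the amino acid starvation factor Gcn4, for AGGGG, the stress response element of Msn2 and Msn4, and for TTACCCG, bound by the general regulatory factor Reb1. The windows of all 1312 ST features held them in 41.7%, 7.09%, 2.82%, 23.2% and 5.95% of cases, and the same windows around 6574 ORF starts in 43.4%, 7.13%, 2.75%, 21.7% and 6.77%. The start regions of ST features and of ORFs thus differed by less than 2 percentage points for each of the 5. Among ST features that rose in the TOS8 strain, 25 of 75 windows (33.3%) held AGGGG and 22 (29.3%) TATAAA, and among those that fell 6 of 49 (12.2%) and 16 (32.7%). A match is only a run of letters, and no test was made of these shares.

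The ST features were short. Their lengths ran from 41 to 4913 bases with a median of 449, and their GC content had a median of 37.8% against 39.7% for ORFs. They lay on all 16 chromosomes, from 14 on chromosome I to 149 on chromosome IV, with 639 on the plus and 673 on the minus strand. Against the annotated ORFs, 794 were antisense, that is, they overlapped an ORF on the opposite strand: 138 covered only its 5′ end, 312 only its 3′ end, 122 the whole ORF, and 222 lay inside it. A further 249 lay upstream of their nearest ORF on its strand (upstream tandem), 111 faced the 3′ end of an ORF on the other strand (convergent), 94 pointed away from the start of an ORF on the other strand (divergent), 61 lay downstream on the same strand (downstream tandem) and 3 overlapped an ORF in sense. Neighbours are not independent, since the 1312 features shared 1144 ORFs. In 514 features another annotated feature overlapped on the same strand, and read pairs in the shared stretch were lost, so that 35 features were counted over fewer than 50 bases.

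Read depth limited what could be seen. The libraries held 6027147 to 35027485 counts, of which 0.929% to 1.08% fell in non-ORF features, and the 1312 ST features together held 18387 to 104985 counts per library. This was 0.290% to 0.321% of all counts, with narrow ranges in every strain: 0.300% to 0.315% for SFL1, 0.300% to 0.317% for HEK2, 0.305% to 0.321% for SAN1, 0.290% to 0.304% for ROF1 and 0.290% to 0.296% for TOS8. Summed over all 20 libraries a single ST feature had a median of 222 counts, from 12 to 52117. Values below are CPM of the non-ORF counts after TMM normalization of the libraries.

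The 5 most abundant ST features per kb varied little between strains, with 1 exception. ST5256 (chrIX:51429-51613), a feature of 185 bases convergent to UBP7 (a ubiquitin protease), had a median of 18776 CPM per kb. It stood at 3444, 3977, 3024 and 3425 CPM in the SFL1 libraries and at 2937, 3023, 4297 and 3708 CPM in the TOS8 libraries. These ranges overlap, and it passed the threshold in none of the 5 one-strain comparisons. ST0990 (chrVI:89579-90771), antisense to 30.7% of EPL1 (a subunit of the NuA4 histone acetyltransferase), followed with 8286 CPM per kb and means of 9087 to 11388 CPM in the 5 strains. Per kb of the bases it was counted over it exceeded EPL1, at 505% (TOS8) to 901% (HEK2) of the ORF's level. ST4290, divergent from IVY1 (a vacuolar protein), and ST3981 (chrIII:176602-176946), 163 bases upstream of SYP1 (an endocytic adaptor), had 6570 and 6557 CPM per kb and strain means of 1574 to 2062 and 1913 to 2605 CPM. Both were called once, with small differences: ST4290 was higher in the TOS8 strain (0.30 ± 0.09 (SE), adjusted p = 0.0083), and ST3981 lower in the HEK2 strain (-0.31 ± 0.08 (SE), adjusted p = 0.0065). Each call was lost without any one library of that strain. The remaining feature of the 5, ST0091, differed widely and is described with the SFL1 strain. The feature with most counts in all, ST6969 (chrXV:1061113-1064393), which was singled out after its values were seen, covers the whole of FRE5 (a putative ferric reductase) in antisense, and stood at 18866 ± 3381 CPM (SD, n = 4) in the HEK2 strain and 10772 ± 758 in the TOS8 strain. It rose in the former (0.58 ± 0.08 (SE), adjusted p = 2.8e-08) and fell in the latter (-0.43 ± 0.08 (SE), adjusted p = 6.7e-05). Per kb it stood above FRE5 in every strain, at 2264% (TOS8) to 5513% (HEK2) of its level.

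Differences between strains were tested across all 4007 non-ORF features by the quasi-likelihood F-test of edgeR, and a feature was called when its p, adjusted over all of them by the Benjamini-Hochberg method, was below 0.01. Of the 1312 ST features, 184 differed among the 5 strains, where 15.9% of all features tested did. The TOS8 strain stood furthest apart, with 124 ST features called where 10% of all features were. Of these, 75 were higher (background 5.49%) and 49 lower (4.54%). Over all 1312 ST features, called or not, the TOS8 libraries of 41 did not overlap the other 16 (background 3.02%). The HEK2 strain had 76 (background 6.94%), with 44 higher (4.24%) and 32 lower (2.7%). The SFL1 strain had 40 (background 4.17%), with 23 higher (2.4%) and 17 lower (1.77%). The ROF1 strain had 12 (background 1.9%), with 6 higher (1.3%) and 6 lower (0.599%), and the SAN1 strain 6 (background 0.873%), with 4 higher (0.699%) and 2 lower (0.175%). In the order TOS8, HEK2, SFL1, ROF1 and SAN1 these are 9.45%, 5.79%, 3.05%, 0.915% and 0.457% of the ST features, and each share lies at or below its background, a difference that was not tested. Leaving out SFL1 replicate 3 lowered the SFL1 count to 23, leaving out SAN1 replicate 4 lowered the SAN1 count to 3, and leaving out HEK2 replicate 4 raised the ROF1 count to 19. The median log2 difference over all ST features lay between -0.09 (ROF1) and 0.06 (SFL1), where that over all non-ORF features lay between -0.04 (ROF1) and 0.06 (HEK2). Of the 1312, 1126 were called in no one-strain comparison, 133 in 1, 38 in 2, 11 in 3 and 4 in 4. The same tally was not made over all non-ORF features. These comparisons are not independent, since each strain is part of the mean that the others are set against. A high level in 1 strain therefore lowers the differences of the other 4. The SFL1 gene, raised by 2.19 in its own strain, was called lower in each of the others (-0.29 to -0.72). Between pairs of strains, the called ST features numbered 173 for HEK2 and TOS8 (background 13%), 124 for SFL1 and TOS8 (9.81%), 55 for HEK2 and ROF1 (5.49%), 53 for ROF1 and TOS8 (3.77%), 45 for SAN1 and TOS8 (3.47%), 33 for HEK2 and SAN1 (3.07%), 32 for SFL1 and ROF1 (3.84%) and 27 for SFL1 and SAN1 (2.8%). The pairs SFL1 and HEK2, and SAN1 and ROF1, had few and are described last.

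**Figure D1:**
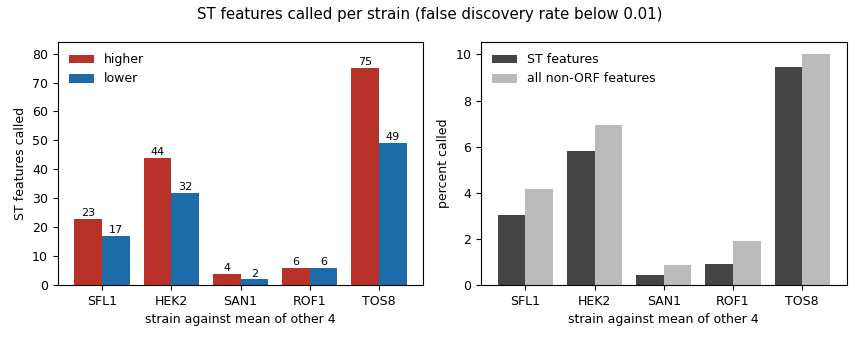
Left, number of ST features called higher or lower per strain, set against the mean over the other 4 (adjusted p below 0.01). Right, the same calls as a percent of the 1312 ST features and of the 4007 non-ORF features tested. The TOS8 strain has 75 higher and 49 lower, the SAN1 strain 4 and 2, and the bar of the ST features is the lower one in all 5 comparisons, a difference that was not tested.

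The share of features called was higher at higher depth. In the TOS8 comparison 1 of 330 features with fewer than 100 counts in all was called, 9 of 427 with at least 100 but fewer than 300, 42 of 329 with at least 300 but fewer than 1000, and 72 of 226 (31.9%) with 1000 or more. A feature not called at low depth may therefore differ. The called features changed by a median of 0.67 on the log2 scale in the TOS8 comparison, and 33 of the 124 by more than 2-fold.

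**Figure D2:**
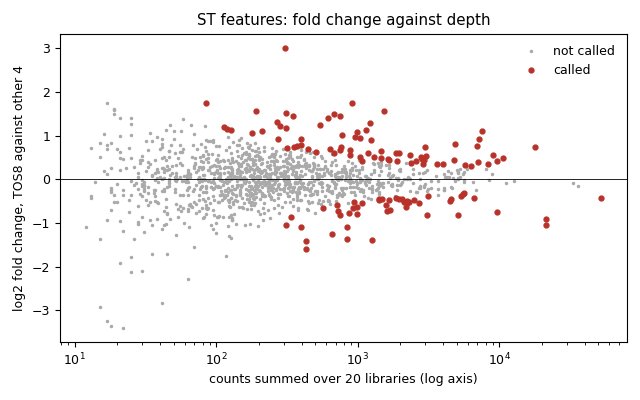
Log2 fold change of each of the 1312 ST features in the TOS8 strain against the mean of the other 4, against its counts summed over the 20 libraries (log axis). Called features (red) gather at the right: 72 of the 226 features with 1000 or more counts were called and 1 of the 330 with fewer than 100.

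The largest rises and falls named for each strain were picked among called features whose libraries did not overlap the rest. Their lack of overlap is thus part of the choice and not further support. In the TOS8 strain, the largest rise was next to the gene on the plasmid. ST1141 (chrVII:324168-325232), which ends 98 bases before TOS8, read 324, 274, 243 and 287 CPM in the 4 TOS8 libraries. The other 16 libraries lay between 0 and 66.6, with a median of 33.3. No library overlapped, and the log2 difference was 3.01 ± 0.21 (SE), adjusted p = 2.8e-18, while the TOS8 ORF rose by 2.17. Only 97 of its 1065 bases are its own, the last ones printed above before the gap to TOS8, and reads from a plasmid copy of that stretch and reads from the chromosome cannot be told apart. ST4827 (chrVII:323244-324236), which runs on the other strand and away from TOS8, was not called (70.3 CPM against 67.2 to 114; log2 difference -0.32, adjusted p = 0.46). It was counted over 146 bases. ST3174 (chrXV:584321-585185), antisense to RUP1 near the SFL1 gene, was likewise not called in the SFL1 strain (138, 134, 88.2 and 88.0 CPM; log2 difference 0.10, adjusted p = 0.87). No ST feature that passed the filter lay within 2000 bases of HEK2, SAN1 or ROF1.

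Other ST features upstream of ORFs rose in the TOS8 strain as well. ST1471 (chrVIII:272111-272615), 11 bases before SAM35 (a subunit of the mitochondrial sorting and assembly machinery), read 634, 522, 629 and 557 CPM in the TOS8 libraries. The others lay between 83.8 and 312, with a median of 141, and the difference was 1.75 ± 0.15 (SE), adjusted p = 1.7e-14. SAM35 itself did not pass (0.09, adjusted p = 0.16). The same class held ST1469 and ST0709, both singled out after their values were seen. ST1469 (chrVIII:266983-267479) lies 58 bases before LRP1, which encodes the partner of the exosome nuclease Rrp6, and stood at 531, 533, 589.8 and 536 CPM against strain means of 192 to 276 (1.13 ± 0.12 (SE), adjusted p = 5e-11), with LRP1 also higher (0.69, adjusted p = 9.6e-07). ST0709 (chrIV:1242733-1243157) lies 72 bases before EFT2 (translation elongation factor 2) and stood at 4736, 3753, 3856 and 2835 CPM against strain means of 1488 to 2112 (1.11 ± 0.09 (SE), adjusted p = 1e-14). Here the ORF moved the other way, by -0.55 (adjusted p = 6.7e-08). EFT2 has a near-identical paralog, EFT1, and reads of the pair may have been split between them.

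**Figure D3:**
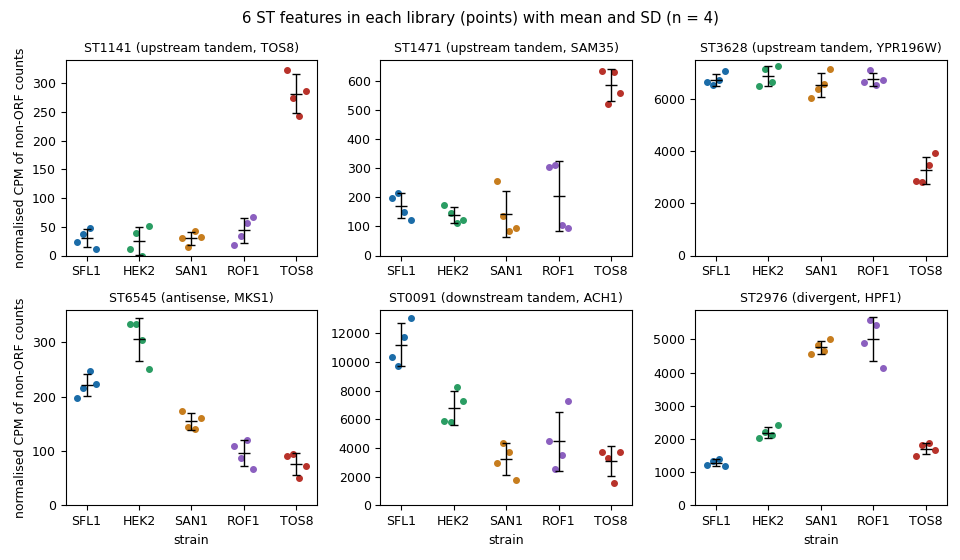
Normalized CPM of 6 ST features in each library (points, grouped by strain), with the strain mean and SD (n = 4). ST1141 and ST1471 are highest in all 4 TOS8 libraries, ST3628 is lowest there, ST6545 is highest in the HEK2 strain, ST0091 in the SFL1 strain, and ST2976 in the SAN1 and ROF1 strains.

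The third largest rise among features whose libraries did not overlap was that of ST6361 (chrXIII:772750-773598), antisense to GTO3 (an omega-class glutathione transferase), with 4, 15, 13 and 9 counts in the TOS8 libraries (53.2 ± 11.4 CPM, SD, n = 4) and means of 9.33 to 30.4 CPM elsewhere (1.74 ± 0.33 (SE), adjusted p = 4.7e-05). It was counted over 28 bases and had 84 counts in all, so that its values rest on few reads. GTO3 also rose (0.68). Antisense features with more reads rose by similar amounts. ST7239 (chrXVI:833483-834075) and its neighbour ST7240 (chrXVI:834075-834307), chosen after their values were seen, both lie opposite MAY24 and share a base, so that they count as 1 locus. ST7239 stood at 919, 698, 1071 and 928 CPM in the TOS8 libraries, above every other library, and rose by 1.58 ± 0.14 (SE), adjusted p = 6.5e-14. ST7240 rose by 1.52, while MAY24 differed by 0.11 (adjusted p = 0.44). ST0470 (chrIV:417276-417636), which converges on OSH2 (an oxysterol-binding protein) and was also chosen after its values were seen, stood at 466, 345, 416 and 388 CPM (1.51 ± 0.16 (SE), adjusted p = 1.7e-11) and was lowest in the HEK2 strain (94.7 CPM).

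The 3 largest falls in the TOS8 strain without overlap between libraries included 1 abundant feature, ST3628 (chrXVI:928711-931119). It starts 5′ of YPR196W (a putative maltose activator) near the end of chromosome XVI and read 2873, 2808, 3484 and 3914 CPM in the TOS8 libraries. The other 16 libraries lay between 6047 and 7262, with a median of 6664, so that the 4 other strains lay close to each other and the TOS8 libraries well below (-1.04 ± 0.08 (SE), adjusted p = 1.6e-15). YPR196W did not pass (-0.06, adjusted p = 0.51). ST0561 (chrIV:722295-726503), which covers most of YCF1 (a vacuolar transporter of glutathione conjugates) in antisense, stood at 142, 153, 183 and 114 CPM. The other libraries lay between 235 and 717, with a median of 355 (-1.38 ± 0.18 (SE), adjusted p = 6.1e-09). YCF1 fell with it (-0.50, adjusted p = 3.3e-07). ST5120 (chrVIII:139389-139797), inside YSC83 (a mitochondrial protein) in antisense, stood at 129, 86.3, 109 and 88.6 CPM and was highest in the HEK2 strain, at 392, 383, 352 and 244 CPM. No TOS8 library reached the lowest of the others (-1.37 ± 0.18 (SE), adjusted p = 7.5e-09), and YSC83 did not pass (0.04, adjusted p = 0.53). ST7026 (chrXVI:190894-191206), which overlaps the end of GUP2 by 90 bases and was named after its values were seen, fell further in the TOS8 strain (-1.60 ± 0.27 (SE), adjusted p = 5.5e-06), with means of 36.6 CPM there and 207 CPM in the HEK2 strain. It was sparse, and its TOS8 libraries overlapped the other 16, which lay between 45.9 and 256 CPM with a median of 132.

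The classes of position were set side by side in the TOS8 strain, where 10% of all non-ORF features were called, 5.49% higher and 4.54% lower. Of the antisense features 75 of 794 were called (9.45%; 37 higher, 38 lower), of the upstream tandem 19 of 249 (7.63%; 16 and 3), of the divergent 15 of 94 (15.96%; 13 and 2), of the convergent 9 of 111 (8.11%; 7 and 2) and of the downstream tandem 5 of 61 (8.20%; 2 and 3). No difference between classes was tested. Over features with at least 300 counts, the log2 differences of the ST feature and its ORF had a Pearson correlation of 0.51 for 97 upstream tandem pairs, 0.40 for 24 downstream tandem, 0.25 for 45 divergent, 0.14 for 44 convergent and 0.05 for 310 antisense pairs. ST1141 and TOS8 are the most extreme upstream pair, and the Spearman values for the upstream and antisense classes were 0.38 and 0.06. These describe pairs that share the libraries of 1 comparison. In the HEK2 strain the upstream tandem and antisense values were 0.24 and -0.02 by Pearson and 0.25 and 0.006 by Spearman. In the SFL1 strain they were 0.10 and 0.16 by Pearson but 0.06 and -0.02 by Spearman. The order of upstream tandem and antisense pairs in the SFL1 strain thus depended on the coefficient. Coding features end at the start and stop codon, so an untranslated leader longer than the gap to an upstream ST feature is read as that feature. Reads beyond the stop codon can likewise fall in a feature just downstream. In all, 204 ST features lay within 250 bases downstream of a same-strand ORF, and 24 of these 204 were called in the TOS8 strain. Of all 1312 ST features 124 (9.45%) were called there, and of all non-ORF features 10%. Whether their reads belong to the ORF was not tested. In the TOS8 strain the 80 upstream pairs with a gap of at most 250 bases had Pearson 0.53 and Spearman 0.37, and the 17 with a longer gap 0.29 and 0.49. In the HEK2 strain the values were 0.17 and 0.17 for the shorter and 0.61 and 0.58 for the longer gaps.

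**Figure D4:**
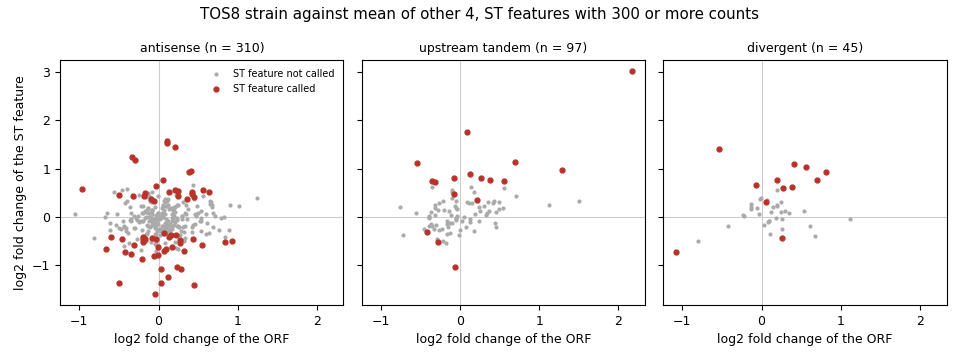
Log2 fold change of the ST feature (vertical) against that of its ORF (horizontal) in the TOS8 strain against the mean of the other 4, for ST features with at least 300 counts, by position class. Called ST features are red. The upstream tandem pairs lean to the diagonal (Pearson 0.51, n = 97), the divergent pairs less (0.25, n = 45), and the antisense pairs do not (0.05, n = 310).

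Antisense features are set beside the ORF they oppose. In the TOS8 strain, 759 had an ORF that was tested too. The ST feature was called in 69 of these pairs. In 36 the ORF was called too, where 48.3% of all ORFs were, and in 33 it was not. Of the 36, 22 moved the same way and 14 in opposite directions. Ranked by the smaller of the 2 changes, the first of the opposite pairs was ST6908 (chrXV:876352-877008), inside MUM3 (a gene of spore wall formation), which read 751, 804, 892 and 974 CPM in the TOS8 libraries against strain means of 534 to 594 (0.57 ± 0.11 (SE), adjusted p = 5.9e-05), although 1 ROF1 library reached 806. MUM3 fell by 0.97, to 2.03 CPM of the ORF counts where the other strains had means of 3.45 to 4.86. In ST6733 (chrXV:368638-369446), inside YOR019W, the ST feature fell to 326 ± 21.9 CPM (SD, n = 4; -0.58) and the ORF rose by 0.55. ST5469 (chrX:267321-267905) lies inside SIP4, an activator of gluconeogenic genes. It stood at 479, 502, 406 and 379.6 CPM in the TOS8 strain and 717, 766, 688 and 645 CPM in the SFL1 strain, with SIP4 at 134 ± 22.0 and 66.3 ± 7.75 CPM of the ORF counts. ST5469 was highest in the SFL1 strain and lowest in the TOS8 strain, and SIP4 lowest in the HEK2 and highest in the TOS8 strain. ST5469 fell by 0.51 on the log2 scale in the TOS8 strain (adjusted p = 0.00039) and SIP4 rose by 0.84; without TOS8 replicate 4 the ST call was lost.

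Pairs that moved together included ST0325 (chrIII:206830-208046), over the whole of PER1 (lipid remodelling of membrane anchors), with 51.8, 106, 99.1 and 139 CPM in the TOS8 strain against strain means of 145 to 181; the ST feature and PER1 both fell (-0.66 and -0.66). ST0838 (chrV:118097-118673), which overlaps the end of PXP1 (a peroxisomal protein) by 57 bases and holds part of a long terminal repeat, rose by 0.56, and PXP1 by 0.57. Neither call was firm: that of ST0325 was lost without TOS8 replicate 1, 2 or 3, SAN1 replicate 2 or ROF1 replicate 1, and that of ST0838 without TOS8 replicate 2 or 3. Over all 759 pairs the antisense level per kb had a median of 4.52% of the ORF level, 147 features (19.4%) lay under 1% and 37 (4.87%) above the ORF. Opposite the 76 ORFs with the highest levels, it had a median of 0.364% and went down to 0.0192%. The part that reads of the ORF assigned to the wrong strand play in these levels was not tested.

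At FLO11, ST1682 (chrIX:389244-393068) covers 85.2% of the ORF in antisense. It was sparse, with 383 counts in all, and stood at 12.0, 37.2, 27.4 and 46.9 CPM in the SFL1 libraries and 128, 92.4, 64.0 and 101 CPM in the HEK2 libraries. The SFL1 libraries lay below every other library, and the ST feature fell by 2.04 on the log2 scale there (SE 0.36, adjusted p = 2.6e-05). FLO11 fell too, by 3.12, to 814 ± 93.5 CPM of the ORF counts against 4165 (HEK2) to 11914 (ROF1). Per kb the antisense level was 0.0101% (ROF1) to 0.0403% (SFL1) of FLO11, and the part of FLO11 reads assigned to the wrong strand was not tested. In the SAN1 strain ST1682 read 495, 144, 69.9 and 138 CPM and was called higher (1.75 ± 0.25 (SE), adjusted p = 1.2e-06), but the call rested on replicate 1: without it the difference was 0.73, with an adjusted p of 0.40. No other ST feature that passed the filter lay within 2000 bases of FLO11 or of CIS3, a cell wall protein gene.

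The SFL1 strain was marked by ST0091 (chrII:196308-196732), which lies 605 bases beyond the end of ACH1 (a mitochondrial CoA transferase) on the same strand. It read 10379, 9730.2, 11712 and 13050.4 CPM in the SFL1 libraries and 5852, 5825, 8243 and 7292 CPM in the HEK2 libraries. The other strains had means of 3213 (SAN1), 4451 (ROF1) and 3078 (TOS8). Every SFL1 library lay above all others, by which it was picked (1.44 ± 0.13 (SE), adjusted p = 1.4e-13), and ACH1 did not pass (-0.21, adjusted p = 0.044). The SFL1 libraries did not overlap the rest in 0.457% of ST features and 0.799% of all non-ORF features. ST0091 was also called higher in the HEK2 strain (0.53) and lower in the SAN1 (-0.81) and TOS8 strains (-0.90 ± 0.15 (SE), adjusted p = 8e-06). Each of these differences was taken against a mean that includes the SFL1 strain. The SAN1 call was lost without SAN1 replicate 4, and the HEK2 call without HEK2 replicate 3 or 4 or ROF1 replicate 3. ST3196, divergent from ALE1 (a lysophospholipid acyltransferase), was at 245, 230.4, 283 and 328 CPM in the SFL1 libraries and at most 176 in any other (1.16 ± 0.16 (SE), adjusted p = 8.3e-08). ALE1 had means of 295 (SFL1), 294 (HEK2), 215 (SAN1), 217 (ROF1) and 145 (TOS8) CPM of the ORF counts. ST4540 (chrV:178206-178574), antisense to PRE1 (a proteasome subunit), stood at 149, 149, 134 and 141 CPM (0.85 ± 0.19 (SE), adjusted p = 0.0014). PRE1 did not pass (-0.03).

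A feature called in 4 of the 5 one-strain comparisons lay at HPF1, which encodes a cell wall mannoprotein. ST2976 (chrXV:31666-33258) starts 59 bases from the start of HPF1 and runs away from it. It read 1214, 1345, 1384 and 1179 CPM in the SFL1 libraries. In the SAN1 strain it read 4552, 4832, 4652 and 5014 and in the ROF1 strain 4881, 5591, 5426 and 4143. The HEK2 and TOS8 strains had means of 2193 ± 177 and 1708 ± 177 (SD, n = 4). The SAN1 and ROF1 libraries overlapped each other and lay above all the rest, with log2 differences of 1.10 ± 0.08 (SE), adjusted p = 8.9e-18, and 1.20 ± 0.08 (SE), adjusted p = 9.3e-20. In the SFL1 strain the difference was -1.27 ± 0.09 (SE), adjusted p = 2.6e-17, and in the TOS8 strain -0.74 ± 0.09 (SE), adjusted p = 1.2e-09. Both falls were taken against means that include the SAN1 and ROF1 strains. HPF1 itself stood at 885 ± 84.1 (SFL1) and 1192 ± 182 CPM of the ORF counts (HEK2). It was at 343 ± 100.1 in the SAN1, 353 ± 149 in the ROF1 and 283 ± 31.2 in the TOS8 strain. HPF1 was thus highest in the SFL1 and HEK2 strains, where ST2976 was low, while in the TOS8 strain both were low. HPF1 holds repeated sequence, and how such reads were placed was not tested.

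**Figure D5:**
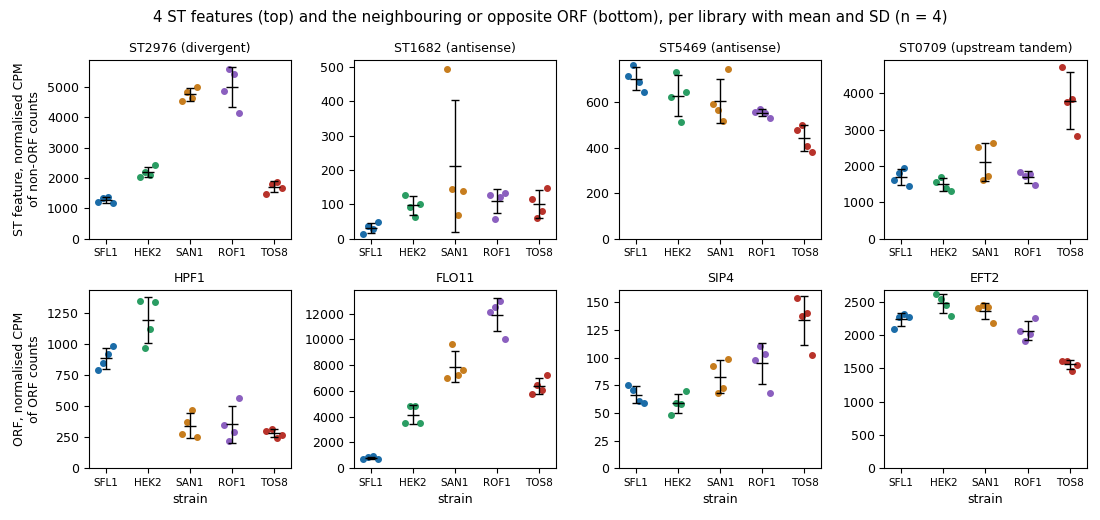
Top, normalized CPM (of the non-ORF counts) of 4 ST features in each library; bottom, normalized CPM (of the ORF counts) of the ORF beside or opposite each, with strain mean and SD (n = 4). ST2976 is highest in the SAN1 and ROF1 strains while HPF1 is highest in the HEK2 and SFL1 strains, ST1682 and FLO11 are both lowest in the SFL1 strain, and ST5469 and ST0709 differ in opposite directions from SIP4 and EFT2 in the TOS8 strain.

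In the HEK2 strain, 48 of 794 antisense features were called (6.05%), 34 higher and 14 lower, and 8 of 94 divergent ones (8.51%), 1 higher and 7 lower. Over all non-ORF features 6.94% were called, 4.24% higher and 2.7% lower, and no difference between classes was tested. ST6545 (chrXIV:483654-485262), inside MKS1 (a regulator of nitrogen and retrograde signalling) and covering 91.7% of it, read 334, 333, 304 and 250.1 CPM in the HEK2 libraries. The TOS8 libraries read 90.6, 94.1, 49.6 and 71.7 CPM. The HEK2 libraries lay above all others (1.26 ± 0.14 (SE), adjusted p = 4e-10), the TOS8 strain was lower (-1.25 ± 0.20 (SE), adjusted p = 1.2e-06), and MKS1 did not pass in either comparison (-0.14 and 0.12). ST0988 (chrVI:78051-79331) covers the whole of CAK1 (the kinase that activates Cdc28) and read 2701, 2292, 1921 and 2232 CPM in the HEK2 libraries against 854, 816, 833 and 823 in the TOS8 libraries. The gain was 1.03 ± 0.09 (SE), adjusted p = 1.7e-14, and the fall in the TOS8 strain -0.82 ± 0.10 (SE), adjusted p = 3.5e-09. Per kb it was 177% of the CAK1 level in the HEK2 and 60.5% in the TOS8 strain, with CAK1 not called in either. ST2057 (chrXI:455217-457121), antisense to FOX2 (peroxisomal fatty acid oxidation), had the highest fold change of the 3 (1.47 ± 0.35 (SE), adjusted p = 0.0021) but only 81 counts over 23 bases of its own, and the call was lost without HEK2 replicate 2.

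The falls in the HEK2 strain included ST4707 (chrVI:167876-168428), opposite DCV1, at 244, 195, 240.1 and 229 CPM (-0.86 ± 0.13 (SE), adjusted p = 5.9e-07), below the lowest library of the other strains (279 CPM). ST6133 (chrXIII:9269-9844), divergent from YML131W, read 1424, 1329, 1024 and 1345 CPM in the HEK2 strain and 3209, 3204, 3469 and 3129.9 CPM in the TOS8 strain. It fell in the former (-0.72 ± 0.10 (SE), adjusted p = 1.1e-07) and rose in the latter (0.92 ± 0.09 (SE), adjusted p = 5.9e-13), and YML131W was likewise lower (-0.40) and higher (0.81). ST0001 (chrI:9368-9600), divergent from SEO1 (a putative permease) near the left end of chromosome I, read 1017, 1029, 672 and 1028 CPM (-0.52 ± 0.10 (SE), adjusted p = 8.6e-05), and SEO1 fell by 0.58.

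The strains in which SFL1 and HEK2 were raised differed from each other at 4 ST features, where 0.574% of all features were called, 2 higher with SFL1 (background 0.225%) and 2 lower (0.349%). ST4970 (chrVII:769602-770314), antisense to CBF2 (a kinetochore protein), read 550.0, 483, 489.8 and 616 CPM with SFL1 and 256, 280.4, 224 and 281 with HEK2 (0.99 ± 0.15 (SE), adjusted p = 5.3e-06). ST3196 was higher with SFL1 too (0.87 ± 0.19 (SE), adjusted p = 0.0059), a call that was lost without SFL1 replicate 3 or 4 or HEK2 replicate 1 or 2. ST0988 (-0.95) and ST2976 (-0.78) were lower. At an unadjusted p below 0.05 there were 137 ST features (10.4%), where 11.5% of all features were.

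The SAN1 and ROF1 strains differed at 3 (background 0.574%). At an unadjusted p below 0.05 there were 139 (10.6%), where 9.81% of all features were. All 3 were antisense and higher with SAN1 (background 0.424%), and none was lower (0.15%). ST5549 (chrX:525971-526667), over the whole of CYC1 (cytochrome c), read 403, 311, 224 and 436 CPM with SAN1 and 174, 130.0, 169 and 213 with ROF1. The difference was 1.12 ± 0.21 (SE), adjusted p = 0.00054. Against the mean of all other strains the ROF1 value was lower by 1.19 (adjusted p = 6e-07), although 1 TOS8 library lay within its range, and CYC1 did not pass (0.02). ST0865 (chrV:191978-192682), over 97.1% of SPC25 (a kinetochore subunit), read 919, 1325, 1159.6 and 1267 and 751, 602, 619 and 666 CPM (0.82 ± 0.15 (SE), adjusted p = 0.00040) and was higher in the SAN1 strain than in the other 4 (0.76 ± 0.11 (SE), adjusted p = 2.3e-06). ST3642 (chrI:35796-36348), opposite BDH1 (butanediol dehydrogenase) and named because it is the third, read 434, 258, 126 and 362 and 183, 99.7, 88.4 and 213 CPM (1.26 ± 0.27 (SE), adjusted p = 0.0038). The groups of ST3642 overlapped. All 3 calls were lost without ROF1 replicate 2, and 1 was left without SAN1 replicate 1.

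Of the few other calls in these strains, ST2012 (chrXI:322311-322807), 420 bases before MSN4 (a stress transcription factor), was lower in the SAN1 strain, at 264 ± 37.7 CPM (SD, n = 4), below every other library (-0.62 ± 0.14 (SE), adjusted p = 0.0048). The call was lost whichever SAN1 replicate was left out. ST1168 (chrVII:388928-389464), opposite DUO1 (a subunit of the DASH complex), was higher with SAN1 and with ROF1 (0.50 and 0.48), and lower with SFL1 (-0.64). Without SAN1 replicate 2 or 4 the SAN1 call was lost, and without ROF1 replicate 2 or 3 the ROF1 call. In the ROF1 strain the largest change was that of ST5222 (chrVIII:460984-462088), antisense to the end of STB5, a transcription factor gene that follows ROF1 on chromosome VIII. Its counts were 0, 3, 1 and 0 in the ROF1 libraries, against 11, 3, 26 and 11 in the SFL1 and 1, 22, 11 and 10 in the TOS8 libraries. In CPM, 1 TOS8 library lay within the ROF1 range. The fitted difference was -2.69 ± 0.55 (SE), adjusted p = 0.00071, and STB5 did not pass (-0.08). It lies 3031 bases from the ROF1 ORF at its nearer end, which is its 3′ end, and whether the plasmid reaches it is not given in the sources used here. ST0314 (chrIII:157726-159262), opposite YCR023C, was the best-read feature called in the ROF1 strain (12744 ± 1252 CPM, SD, n = 4; 0.56 ± 0.09 (SE), adjusted p = 2.6e-06) and lower in the SFL1 strain (-0.58). ST5222, ST1168 and ST0314 were picked after their values were seen.

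Genes of the machinery that makes and removes noncoding transcripts are set beside all ORFs in the TOS8 strain. There 48.3% of the 5772 ORFs tested were called, 1417 higher and 1370 lower. Whether these genes were called more often than other ORFs was not tested. Of 12 genes of the nuclear exosome and TRAMP, 7 rose and none fell, with a median log2 difference of 0.21 against -0.01 over all ORFs. They were LRP1 (0.69), MPP6 (0.48), RRP4 (0.39), CSL4 (0.38), MTR4 (0.26), RRP6 (0.21) and RRP40 (0.20). Of 4 genes of Nrd1-Nab3-Sen1 termination, SEN1 (-0.65) and PCF11 (-0.33) fell, while NRD1 (-0.05) and NAB3 (-0.05) did not pass. Among 13 cytoplasmic decay genes UPF3 rose and 4 fell, XRN1 most (-0.43), and among 16 chromatin genes 5 rose, EAF3 most (0.38), and 3 fell. In the HEK2 strain 2 exosome genes fell and none rose, where 24.5% of all ORFs were called, and in the SFL1, SAN1 and ROF1 strains, where 16.2%, 3.29% and 8.85% were, none of the 12 was called. The a-specific genes moved between strains as well (4 of 5 lower in the TOS8, 3 in the SFL1 and 1 in the HEK2 strain; 4 higher in the SAN1, 5 in the ROF1 strain). Of 3 alpha-specific genes tested, STE3, the receptor for a-factor, was lower in the SFL1 (-0.35) and HEK2 (-0.45) and higher in the SAN1 (0.37) and ROF1 strains (0.35), SAG1 was higher in the HEK2 (0.37) and lower in the TOS8 strain (-0.28), and MFALPHA1 did not pass in any. The part of these mating-type genes or of the decay genes in the ST differences was not tested.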

How the data were processed

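Stranded mRNA libraries of 5 plasmid strains, 4 per strain, were sequenced by the authors in pairs of 51-nt reads. Per the labels and the study's methods, reads were aligned to the R64 genome with Bowtie2 (2.1.0) and assigned to features with featureCounts (1.4.0, Subread), and the authors deposited raw counts per feature, in 1 table with no unmapped sample column. Read pairs over more than 1 feature of a strand were not counted, which lowers overlapping features. The counts of non-ORF features and of ORFs were each normalized by TMM within their own group and tested with edgeR 4.0.16 (R 4.3.3) in 1 fit of all 20 libraries, without a replicate term; contrasts set 1 strain against the mean of the other 4, or 2 strains against each other, and calls needed an adjusted p below 0.01. Features needed a median of 1 CPM over the 20 libraries. Position classes and sequences come from the deposited coordinates and RefSeq R64.

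Counts were simulated for the TOS8 comparison over 4007 features, with the same spread between libraries set for every feature. Changes were placed only in features with at least 300 counts in all. Of these, 96% of those changed by 1 on the log2 scale and 100% of those changed by 2 were recovered. The median ST feature had 222 counts, so these shares do not cover most ST features. Named features were the 5 highest per kb, the 3 largest rises and falls per strain without overlap between libraries (2 for each strain pair), those within 2000 bases of a plasmid gene, FLO11 or CIS3, and the 3 antisense pairs with the largest changes in opposite and in like directions; others are marked in the text as chosen after their values were seen. The members and gene lists were chosen with earlier results of these data known. Nothing says that the libraries of a strain came from separate cultures, so p-values measure the spread between these samples. Alternatives were DESeq2 1.42.0, other scaling, filters and thresholds, features without same-strand overlap, a replicate block, and leaving out each library. The DIG1 strain and the empty vector were not analysed here.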

Additional observations from a re-analysis of the deposited data

Results flagged for a closer look

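In 10 of 220 groups of 4 libraries of the named ST features, 1 library lay far from the other 3 by Dixon's test. Chance alone flags about 1 group in 20, and 10 of 220 is in that range. High libraries were HEK2 replicate 4 for ST5256 (4190 CPM, others 2809 to 3025) and for ST0561 (717 CPM, others 320.1 to 353), SAN1 replicate 4 for ST6133 (2640.1 CPM, others 1577 to 1691) and for ST4970 (330.0 CPM, others 273 to 279), SFL1 replicate 3 for ST0001 (1308 CPM, others 1103 to 1137), ROF1 replicate 2 for ST2012 (390.0 CPM, others 329.6 to 333) and TOS8 replicate 3 for ST1469 (589.8 CPM, others 531 to 536). Low libraries were ROF1 replicate 2 for ST1682 (56.3 CPM, others 121 to 133), HEK2 replicate 3 for ST0001 (672 CPM, others 1017 to 1029) and SFL1 replicate 2 for ST3642 (193 CPM, others 274 to 287).

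Rows for ERCC control sequences, which no comparison uses, held 0 to 54 counts per library.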

How the results depend on the processing

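For the named ST features, 2408 of 2548 values under an alternative kept their direction and their side of the threshold, and 140 did not; 1 turned its sign, that of ST3174 in the SFL1 strain, which was never called (from -0.0205 without SFL1 replicate 1 to 0.24 without SFL1 replicate 3). At a false discovery rate of 0.05 the calls were 290 for any difference, 145 in the HEK2, 85 in the SFL1, 37 in the ROF1 and 12 in the SAN1 strain, and for pairs of strains 103 (HEK2-ROF1), 74 (HEK2-SAN1), 266 (HEK2-TOS8), 82 (ROF1-TOS8), 5 (SAN1-ROF1), 16 (SFL1-HEK2), 84 (SFL1-ROF1), 46 (SFL1-SAN1) and 207 (SFL1-TOS8). With a fold change above 1.5 required they were 23 for SFL1, 49 for HEK2, 5 for ROF1 and 74 for TOS8; this could not be computed for any difference. With at least 10 counts in every library, HEK2-TOS8 had 109 and SFL1-HEK2 7; with no filter, ROF1 had 19, SAN1-ROF1 5, SFL1-HEK2 9 and SFL1-ROF1 49. Over features without same-strand overlap, which are fewer, any difference had 116, TOS8 76, HEK2-TOS8 109, ROF1-TOS8 29 and SAN1-TOS8 29. SFL1-HEK2 had 8 with TMM over ORFs, with the likelihood ratio test and with only the libraries compared, and SFL1-ROF1 53 with the last. All counts of calls in this section are of ST features. Shares over all non-ORF features were worked out at the main setting only, so these counts under alternatives have no background beside them.

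Leaving out 1 library gave 150 to 191 calls for any difference, 87 to 135 in the TOS8, 52 to 94 in the HEK2, 23 to 48 in the SFL1, 8 to 19 in the ROF1 and 3 to 7 in the SAN1 strain. The ranges were 33 to 60 for HEK2-ROF1, 22 to 37 for HEK2-SAN1, 130 to 177 for HEK2-TOS8, 34 to 61 for ROF1-TOS8, 0 to 4 for SAN1-ROF1, 28 to 47 for SAN1-TOS8, 3 to 6 for SFL1-HEK2, 22 to 46 for SFL1-ROF1, 18 to 30 for SFL1-SAN1 and 85 to 139 for SFL1-TOS8. Where 1 library moved a count by over 1.5 times, these were SFL1 replicate 3 (SFL1, 23), SAN1 replicate 4 (SAN1, 3), HEK2 replicate 4 (ROF1, 19), ROF1 replicate 2 (HEK2-ROF1, 33; SAN1-ROF1, 0), ROF1 replicate 3 (ROF1-TOS8, 34), SAN1 replicate 1 (SAN1-ROF1, 1) and TOS8 replicate 3 (SAN1-TOS8, 28). The causes were not tested. In a fit with a replicate block, calls numbered 194 for any difference, 137 in the TOS8, 82 in the HEK2, 45 in the SFL1, 15 in the ROF1 and 6 in the SAN1 strain. Without the block they were 184, 124, 76, 40, 12 and 6. Deviations of same-numbered libraries had a mean correlation of at most 0.05 for any strain pair. Most features are sparse, and counting error can hide a shared effect in this measure. Whether same-numbered libraries share a batch was therefore not settled. Low depth limits calls: 1 of 330 features with fewer than 100 counts was called in the TOS8 comparison.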
